A study of Homo sapiens with 8 samples.

Results

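The Krüppel-like factors examined here were 10 genes, KLF2, KLF3, KLF4, KLF5, KLF6, KLF7, KLF9, KLF10, KLF11 and KLF13, and the members were all array probes annotated with one of these symbols. The platform annotation named 13 probes of the 47315 on the array for 9 of the genes, and none for KLF11, whose expression is therefore not analysed here. KLF10 was read by 3 probes, KLF3 and KLF4 by 2 each and the other genes by 1 each. A2058 is an established human melanoma cell line, and TGFβ1 is a secreted cytokine that signals through SMAD transcription factors. The 8 samples were separate wells, 4 exposed to TGFβ1 and 4 labelled as control vehicle (untreated in their titles), and all 8 carried an empty expression plasmid introduced with a lipid reagent. Per the methods the cells were treated in serum-free medium for 24 h with TGFβ1 at either 5 or 10 ng/ml, and the dose of these wells is not given.

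The wells came from one passage plated together, so the p-values rest on the spread among parallel wells, without a repeat in independent cultures. Total RNA was hybridised to Illumina HT-12 arrays, and the number of arrays limits the precision. The deposited values are log2 values centred by gene, so each probe averages 0 over the 8 arrays and the mean of the TGFβ1 wells mirrors that of the vehicle wells. A level can therefore not be compared between genes, and a probe with little signal cannot be told apart from one that did not respond. For the same reason the melanocyte identity of the cells could not be checked by level. In their change, 0 of 7 measured melanocyte markers were higher under TGFβ1 and 3 were lower (MITF, SOX10 and TYRP1) at an adjusted p under 0.05 in limma. By that measure 3.03% of all genes were higher and 2.67% lower. The median change of the melanocyte markers was −0.23. Of the markers of fibroblasts, keratinocytes, leukocytes and endothelium 0 passed, and their medians lay between −0.043 and 0.025. TGFβ1 replicate 4 had the largest mean squared deviation from its group, 0.018, where the other 7 arrays lay between 0.0099 and 0.0139. A gene's value below is the mean of its probes, and a change is TGFβ1 minus vehicle on the log2 scale. Genes with an adjusted p under 0.05 in limma over all 20045 genes were counted as called. The members and the gene lists below were named with earlier results of these arrays known, so their counts are a description.

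Krüppel-like factors are transcription factors with a run of zinc fingers at the carboxyl end that bind GC-rich and CACCC sequences. They differ in the partners that their amino-terminal parts recruit. KLF2, KLF4, KLF5, KLF6 and KLF7 mostly activate transcription together with histone acetyltransferases, KLF9, KLF10, KLF11 and KLF13 bind the SIN3A corepressor, and KLF3 binds the CtBP corepressors. KLF10 and KLF11 are also known as TGFβ-inducible early genes, named for their rapid induction by TGFβ in other cells.

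KLF6 mRNA was lower in TGFβ1-treated A2058 cells, and no other of the 9 measured genes passed the test. Among the members 0 were called higher and 1 lower in limma, where 5.7% of all genes were called, 3.03% higher and 2.67% lower. At an unadjusted p under 0.05, 1 member was higher, KLF9, and 1 was lower, KLF6, where 7.6% of all genes were higher and 8.04% lower by that measure. Over the 13 probes limma called 0 higher and 1 lower, where 3.33% of all probes were called, 1.8% higher and 1.53% lower. SAM, the method of the study, also called 0 higher and 1 lower, where it called 612 higher and 377 lower of all 47315 probes. The median change of the 9 genes was 0.042, against −0.0013 over all genes. The 8 genes other than KLF6 changed by between 0.019 and 0.24 in size with a median of 0.068, close to the median size of 0.064 over all genes.

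**Figure D1:**
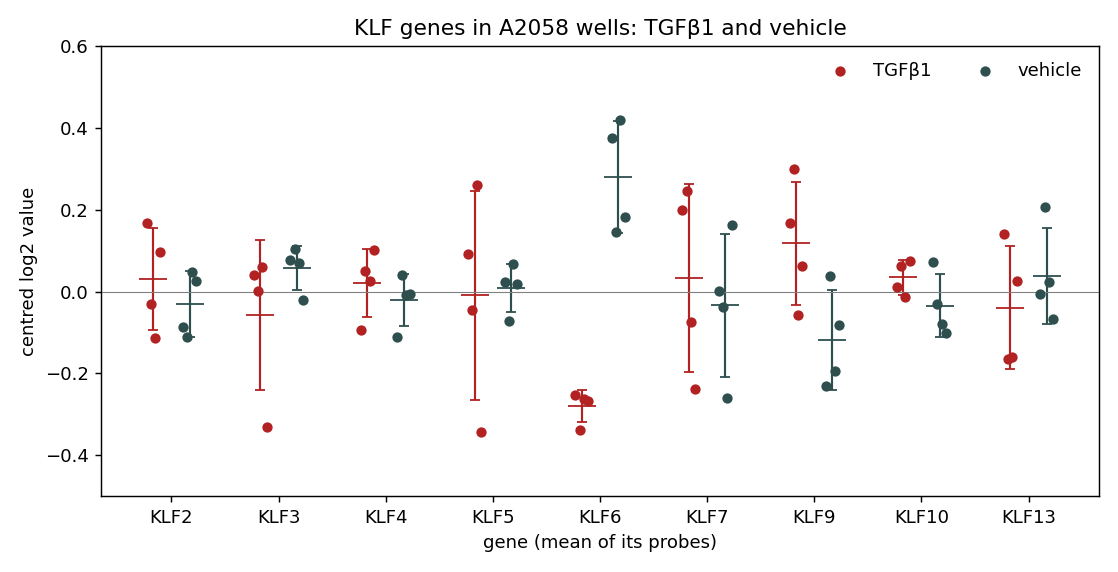
Centred log2 value of 9 KLF genes (mean of each gene's probes) in every well, with 4 TGFβ1 wells and 4 vehicle wells a gene. Points are wells and bars are the mean ± SD. The KLF6 values of the TGFβ1 wells lie between −0.34 and −0.25, all below those of the vehicle wells, between 0.15 and 0.42, while the groups of the other 8 genes overlap.

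Of the activating factors, KLF6, which is induced early in many injured tissues and is known as a suppressor of growth in several tumours, had values of −0.25, −0.34, −0.26 and −0.27 in the TGFβ1 wells, against 0.38, 0.15, 0.42 and 0.18 in the vehicle wells. All TGFβ1 wells were low and close together, while the vehicle wells fell into a higher and a lower pair, and the groups did not overlap. Groups without overlap were found for 10.3% of all genes and 7.26% of all probes. KLF6 averaged −0.28 ± 0.039 under TGFβ1 and 0.28 ± 0.14 under vehicle (SD, n = 4 each). The change was −0.56 (SE 0.071, 95% interval −0.71 to −0.41, adjusted p = 0.00022 in limma), which is 1.47-fold lower. By size of change KLF6 ranked at 259 of the 20045 genes. Its interval did not reach those of the other 8 members, of which KLF3 had the lowest limit, at −0.29.

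A further probe, ILMN_1737406, is given as KLF6 in the study's probe table but has no gene in the platform annotation, so it was not a member by the rule. That table lists probes chosen for their response on these same arrays, and the values of this probe are therefore a description without a test. It read −0.26, −0.39, −0.18 and −0.21 in the TGFβ1 wells, against 0.27, 0.19, 0.35 and 0.22 in the vehicle wells. The difference was −0.52, beside −0.56 for the annotated probe ILMN_1735014. Both probes ranked the vehicle wells in the same order, with replicate 3 highest and replicate 2 lowest, and both had TGFβ1 replicate 2 lowest. The table places both on the minus strand of chromosome 10, from 3811452 to 3811501 for the annotated probe, and from 3812385 to 3812421 and from 3813833 to 3813845 for the further probe, which thus spans a splice junction. The build of these positions is not given in the sources used here. The 2 probes lie 883 bases apart and so read separate stretches of the transcript, the annotated one nearer its 3′ end. The junction probe is shown because it reads KLF6 RNA across that junction, with the 13 bases before the junction in capitals and the 37 bases after it in lower case.
KLF6 ILMN_1737406: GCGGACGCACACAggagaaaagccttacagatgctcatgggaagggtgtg

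**Figure D2:**
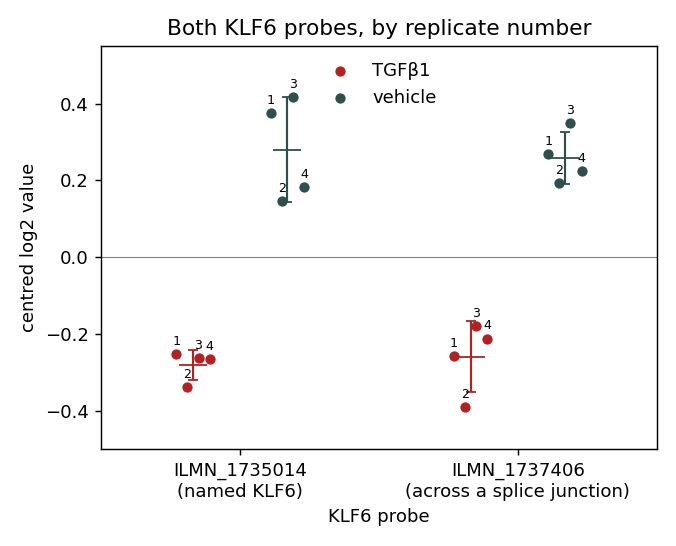
Centred log2 values of both KLF6 probes in the 4 TGFβ1 wells and the 4 vehicle wells, with the replicate number beside each point and the mean ± SD as bars. The TGFβ1 wells lie below 0 and the vehicle wells above 0 on either probe, and vehicle replicates 1 and 3 are the highest on both.

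KLF2, a factor of quiescent endothelium and T cells, read 0.17, −0.029, −0.11 and 0.097 in the TGFβ1 wells, against −0.086, −0.11, 0.048 and 0.027 in the vehicle wells. The groups overlapped over most of their range, and the change was 0.061 (95% interval −0.095 to 0.22, adjusted p = 0.80 in limma). KLF4, a factor of epithelial differentiation and of induced pluripotency, changed by 0.042 (95% interval −0.095 to 0.18, adjusted p = 0.86 in limma). Its 2 probes differed in sign, at 0.13 and −0.048, and neither passed (adjusted p = 0.75 and 0.93 over all probes in limma). KLF5, which promotes growth in epithelia and vascular smooth muscle, spread from −0.34 in replicate 4 to 0.26 in replicate 3 among the TGFβ1 wells, against −0.072 to 0.068 among the vehicle wells. The vehicle wells thus lay within the range of the TGFβ1 wells, and the change was −0.019 (95% interval −0.24 to 0.20), with a sign that turned without TGFβ1 replicate 4, to 0.093, and without vehicle replicate 3, to 0.0010. KLF7, a factor of developing neurons, ranged from −0.24 to 0.25 under TGFβ1 and from −0.26 to 0.16 under vehicle. Its change was 0.067 (95% interval −0.17 to 0.30, adjusted p = 0.88 in limma), the widest interval of the members.

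Among the SIN3A-binding factors, KLF10, the TGFβ-inducible early gene, read 0.012, 0.063, −0.013 and 0.076 in the TGFβ1 wells, against 0.073, −0.030, −0.079 and −0.10 in the vehicle wells. Vehicle replicate 1 lay as high as the highest TGFβ1 wells, and the groups overlapped. KLF10 averaged 0.034 ± 0.042 under TGFβ1 and −0.034 ± 0.078 under vehicle (SD, n = 4 each). The change was 0.069 (SE 0.061, adjusted p = 0.70 in limma). Its 95% interval, from −0.062 to 0.20, was the narrowest of the members and corresponds to between 0.958-fold and 1.15-fold of vehicle. This interval is for a mean of 3 probes, more than any other member had. The probe ILMN_2411897 alone had a wider interval, from −0.023 to 0.33. The wells were sampled once, so an earlier change of KLF10 was not measured.

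The 3 KLF10 probes changed by 0.0059, 0.046 and 0.16, and none passed (adjusted p = 0.99, 0.92 and 0.54 over all probes in limma, unadjusted p = 0.94, 0.58 and 0.084). The last of them, ILMN_2411897, read 0.11, 0.18, 0.024 and 0.00018 in the TGFβ1 wells, against 0.10, −0.011, −0.22 and −0.19 in the vehicle wells. On this probe vehicle replicate 1 again lay among the TGFβ1 wells, and the other vehicle wells lay below them.

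KLF9, a factor induced by glucocorticoid and thyroid hormones, had the largest positive change of the members and did not pass the test. It read 0.17, 0.30, −0.056 and 0.062 in the TGFβ1 wells, against −0.23, 0.038, −0.19 and −0.082 in the vehicle wells. The groups overlapped through TGFβ1 replicate 3, which lay below vehicle replicate 2. The change was 0.24 (SE 0.084, 95% interval 0.054 to 0.42, unadjusted p = 0.015, adjusted p = 0.15 in limma). With single arrays left out it lay between 0.18 without TGFβ1 replicate 2 (adjusted p = 0.37) and 0.29 without TGFβ1 replicate 3 (adjusted p = 0.075), short of the threshold throughout. KLF13, which acts in lymphocytes and heart, read 0.14, −0.16, −0.16 and 0.027 in the TGFβ1 wells, against −0.0064, 0.21, 0.023 and −0.066 in the vehicle wells. The groups overlapped, and the change was −0.078 (95% interval −0.26 to 0.10, adjusted p = 0.77 in limma).

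KLF3, the CtBP-binding repressor, read 0.042, 0.00015, 0.060 and −0.33 in the TGFβ1 wells, against 0.077, 0.10, 0.069 and −0.020 in the vehicle wells. TGFβ1 replicate 4 stood well below the other wells, and the remaining TGFβ1 wells overlapped with vehicle. The change was −0.11 (95% interval −0.29 to 0.065, adjusted p = 0.61 in limma), and without TGFβ1 replicate 4 it was −0.023. The 2 KLF3 probes changed by −0.21 and −0.019, and that array was the lowest on both, at −0.50 and −0.16. KLF3-AS1, a transcript annotated as antisense to KLF3 with a probe of its own, was at −0.055 (SE 0.091, limma, adjusted p = 0.92).

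**Figure D3:**
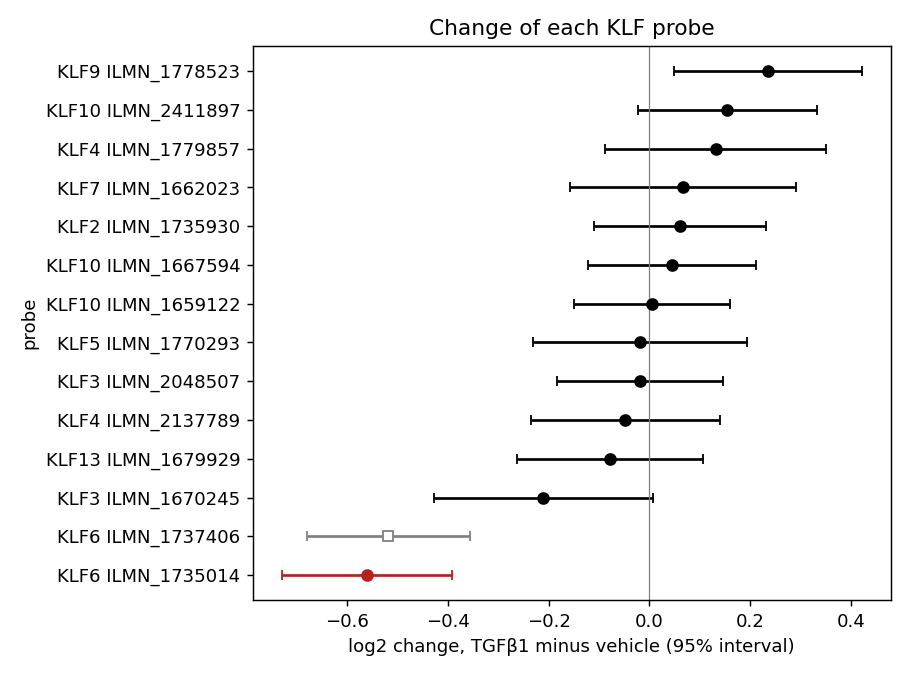
Log2 change (TGFβ1 minus vehicle) of each KLF probe with its 95% interval from limma, sorted from high to low. Filled circles are the 13 member probes, with the called one in red, and the open grey square is the further KLF6 probe of the study's table, shown as a description. The interval of the KLF9 probe lies above 0, at 0.050 to 0.42, without a call after adjustment, and the 3 KLF10 probes lie between 0.0059 and 0.16.

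Sorted by change, the members ran from KLF9 at 0.24 through KLF10, KLF7, KLF2 and KLF4 to KLF5, KLF13 and KLF3, with KLF6 last. From KLF9 to KLF3 the 95% interval of each gene overlapped with that of the next, and only the step from KLF3 to KLF6 had intervals that did not meet. The spread between wells of a group was 0.062 for KLF10, the smallest, and 0.20 for KLF7, the largest (pooled SD over both groups). The median over all genes was 0.10. The KLF10 value is for a mean of 3 probes, which alone had 0.058, 0.096 and 0.12, while KLF7 had 1 probe.

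The rest of the family gave no call by gene. Of 16 other KLF and SP factors 15 were measured, with a median change of 0.039. In limma 0 were called higher and 0 lower, beside 3.03% and 2.67% of all genes. At an unadjusted p under 0.05, 1 of them was higher and 1 was lower, beside 7.6% and 8.04% of all genes. These were SP4, a neuronal relative of the general factor SP1, at 0.18 (SE 0.070, adjusted p = 0.19), and KLF16, a further SIN3A-binding factor, at −0.23 (SE 0.085, adjusted p = 0.18). Over the 22 probes of this list limma called 1 higher and 0 lower, beside 1.8% and 1.53% of all probes. The called one was an SP4 probe at 0.30 with an adjusted p of 0.045. The second SP4 probe was at 0.069. SAM called 0 probes of this list, where it called 612 higher and 377 lower of all 47315 probes.

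Partners of the KLF factors included 1 call. KAT2B, a histone acetyltransferase also named PCAF, fell by 0.62 (SE 0.11, adjusted p = 0.0031 in limma). Of the 15 measured corepressors and coactivators, 0 were called higher and 1 lower by gene, beside 3.03% and 2.67% of all genes. At an unadjusted p under 0.05 there were 0 higher and 2 lower, beside 7.6% and 8.04% of all genes. The KAT2B probe ILMN_3243142 read −0.50, −0.42, −0.12 and −0.72 in the TGFβ1 wells, against 0.15, 0.68, 0.52 and 0.41 in the vehicle wells. All TGFβ1 wells were below all vehicle wells on both KAT2B probes, which changed by −0.88 and −0.36. Its paralogue KAT2A was at −0.36 (SE 0.12, adjusted p = 0.12), and without TGFβ1 replicate 4 it passed at −0.47 (adjusted p = 0.020). The acetyltransferases EP300 and CREBBP were at 0.033 and 0.051, and SIN3A, the corepressor of the KLF9 and KLF10 group, was at 0.12 (adjusted p = 0.58). CTBP1, the corepressor bound by KLF3, was at −0.065 by gene, but 1 of its 3 probes was called lower at −0.31 (limma, adjusted p = 0.028) and the other 2 were at −0.0087 and 0.12. The list's median change was 0.0049.

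Among 15 measured upstream regulators and ubiquitin ligases of KLF factors, 1 was called higher and 0 lower in limma, beside 3.03% and 2.67% of all genes. At an unadjusted p under 0.05, 2 were higher, MEF2C and MEF2D, and 0 were lower, beside 7.6% and 8.04% of all genes. MEF2C, a MADS-box factor that drives KLF2 and KLF4 downstream of the kinase ERK5, read 0.35, 0.36, 0.12 and 0.067 in the TGFβ1 wells, against −0.46, −0.21, −0.12 and −0.086 in the vehicle wells. The groups did not overlap, and MEF2C rose by 0.44 (SE 0.093, adjusted p = 0.011), while KLF2 and KLF4 were at 0.061 and 0.042. MEF2D was at 0.25 (SE 0.086, adjusted p = 0.14) and passed without TGFβ1 replicate 3, at 0.32 (adjusted p = 0.029). SIAH1, a ubiquitin ligase that targets KLF10, was at 0.13 by gene (adjusted p = 0.51), with 1 of its 4 probes called higher at 0.37 (limma, adjusted p = 0.018) and the others at 0.010, −0.055 and 0.18. Of the 33 probes of this list SAM called 1 higher, that of MEF2C, and 0 lower, beside 612 higher and 377 lower of all 47315 probes.

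Of 26 measured genes reported as KLF targets in other systems, 4 rose and 1 fell, where 3.03% of all genes rose and 2.67% fell. The list's median change was −0.0029. At an unadjusted p under 0.05 in limma, 7 were higher and 1 was lower, beside 7.6% and 8.04% of all genes. Groups without overlap were found for 7 of the 26, beside 10.3% of all genes. Like the members and the other lists, this list was drawn up with earlier results of these arrays known, so its counts are a description. With TGFβ1 replicate 1 left out, 5 were called higher, the added one being EGR1, an immediate early transcription factor, at 0.25 (adjusted p = 0.043 in limma). CCND1, cyclin D1, rose by 0.64 (SE 0.075, adjusted p = 0.00010 in limma) and read 0.27, 0.21, 0.37 and 0.42 in the TGFβ1 wells, against −0.31, −0.27, −0.49 and −0.20 in the vehicle wells. BCL6, a zinc finger repressor, rose by 0.60 (SE 0.11, adjusted p = 0.0058), with vehicle wells that spread from −0.56 to 0.059. SMAD7, the inhibitory SMAD that KLF10 is known to repress, rose by 0.54 (SE 0.066, adjusted p = 0.00015) on both of its probes, at 0.61 and 0.47. CDKN1A, the cell cycle inhibitor p21 that KLF4 and KLF6 are known to activate, rose by 0.35 (SE 0.058, adjusted p = 0.0021), to which its 2 probes contributed unequally, ILMN_1784602 with 0.73 and ILMN_1787212 with −0.033 (limma, adjusted p = 0.94). SMAD3 fell by 0.43 (SE 0.084, adjusted p = 0.0070). TGFB1, TGFBR1, ENG and PLAU, reported as targets of KLF6, were at 0.097, −0.086, −0.036 and 0.018, with adjusted p-values between 0.56 and 0.95.

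**Figure D4:**
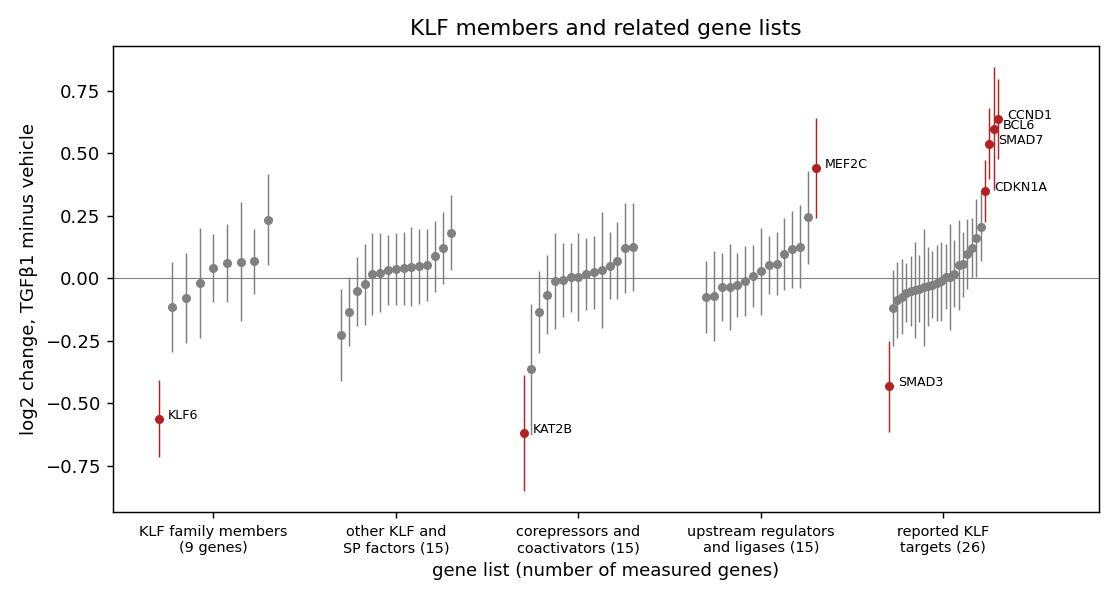
Log2 change (TGFβ1 minus vehicle) with 95% intervals for the 9 KLF members and for the genes of 4 related lists, sorted within each list. Red points with names passed at an adjusted p under 0.05 in limma over all genes and grey points did not. KLF6 is the only red point among the members, and the list of other KLF and SP factors has none.

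Windows of 300 bases at the annotated starts, mostly upstream of them, were read for the members from the RefSeq table (GRCh38.p14), which held 13 windows for 8 of the genes, KLF11 with 2 of them included. KLF3 and KLF10 had no entry. Motifs were searched on both strands, with overlapping matches counted. The GC box GGGCGG, the site of SP and KLF factors, was in 8 of the 13 windows, where 45.0% of all 35116 windows held it, and the KLF box CACCC was in 7, where 59.9% of all held it. The SMAD box CAGAC was in 5 of the 13, where 45.3% of all held it, and the AP-1 element TGACTCA was in 0, where 4.95% of all held it. The KLF6 window, chr10:3785160-3785459 on the minus strand, is shown because KLF6 is the member that changed. It held the GC box in 2 places, marked by capitals, and no match to the other motifs.
KLF6 promoter: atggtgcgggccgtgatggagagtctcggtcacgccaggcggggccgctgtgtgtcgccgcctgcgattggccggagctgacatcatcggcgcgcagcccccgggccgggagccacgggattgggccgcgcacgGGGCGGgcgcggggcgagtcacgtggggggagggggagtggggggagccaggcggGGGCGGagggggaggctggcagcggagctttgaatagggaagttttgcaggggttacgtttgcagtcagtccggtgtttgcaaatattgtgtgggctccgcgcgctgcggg

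Outside the family, the genes whose values over the 8 arrays were most like those of KLF6 were SGSH, a lysosomal sulfatase, SETDB2, a histone methyltransferase relative, and RRAGD, a GTPase of amino acid sensing, with Pearson's r of 0.994, 0.986 and 0.984. They changed by −0.65, −0.57 and −0.54, so that the difference between the groups carries most of this likeness. For KLF10 they were RNF215, TTC7A and MIR424, with r of 0.963, 0.957 and 0.957 and changes of 0.083, 0.083 and 0.071. These values describe likeness over 8 arrays picked from 20045 genes, and they carry no test.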

How the data were processed

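Gene expression in 8 wells of A2058 cells, 4 with TGFβ1 and 4 with vehicle by their treatment labels (the titles call the controls untreated), was read on Illumina HT-12 arrays. According to the methods the authors quantile normalised the data and removed control probes in BASE, then took log2 and centred by gene and sample in MeV. The deposited log2 values were used as they are. Neither signal nor detection values are part of them, so dim probes were not filtered, and the log base is known only from the methods. Probes were named from the platform annotation, which gave 1 symbol to 30105 of 47315 probes. Gene values were means of probes. The difference of TGFβ1 and vehicle was estimated without covariates with limma 3.58.1 (lmFit, eBayes; R 4.3.3), and p-values were adjusted by Benjamini-Hochberg over all probes or all genes. The probe fit was tested on simulated independent normal values with the spread of these probes. It recovered 2 of 67 changes of size 0.25, 51 of 67 of size 0.5 and 66 of 66 of size 1, with 3 false calls. Far fewer probes were changed there than the 1576 that limma called on these arrays. The adjustment was therefore stricter there, and these recovery rates need not hold for these arrays. The fit by gene was not simulated. SAM used all 70 labellings and a median of 10 false calls. All members and the 4 lists were named with earlier results of these data known. The rule named every member, up to 4 called genes per direction and list, and the 3 genes most like KLF6 and KLF10. SP4, KLF16, KAT2A, MEF2D, CTBP1, SIAH1, EGR1 and uncalled partners and targets were named after their values were seen. Alternatives were renormalisation, common medians, array weights, robust eBayes, a replicate block, each array left out, a stricter threshold, SAM and taking each gene's most variable probe, and, after seeing the data, both KLF6 probes averaged. Wells of the same replicate number showed little likeness in their deviations from the group means (r between −0.016 and 0.027 for the 4 numbers). Only for TGFβ1 replicate 2 was the vehicle well of the same number the most alike. These values cannot settle whether the wells were paired.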

Additional observations from a re-analysis of the deposited data

Results flagged for a closer look

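In groups of 4 wells, 3 of the 34 groups tested held a well far from the others by the ratio of its gap to the range. Chance alone gives about 1 in 20. The groups were those of the member genes, of the single probes of KLF3, KLF4 and KLF10, and of the further KLF6 probe. Gene means and their own probes are not independent, so the count cannot be set strictly against that rate. KLF3 in TGFβ1 replicate 4 was −0.33, and the other TGFβ1 wells lay between 0.00015 and 0.060. KLF6 in TGFβ1 replicate 2 was −0.34, and the other TGFβ1 wells lay between −0.27 and −0.25, so the distance is small beside the difference between the groups. The KLF10 probe ILMN_1659122 was −0.069 in vehicle replicate 2, and the other vehicle wells lay between 0.018 and 0.020.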

How the results depend on the processing

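KLF6, read by its annotated probe, was lower and called in every alternative fit by gene. Its changes ran from −0.61 to −0.51, with adjusted p-values over all genes from 0.00018 to 0.0015 in limma. No other member was called by gene under any alternative. Averaged with the further KLF6 probe, KLF6 was at −0.54, a description only, since that probe was chosen on these arrays. The change of KLF5 turned sign to 0.00068 after renewed quantile normalisation and to 0.014 with array weights, and with single arrays left out it ran from −0.11 to 0.093. That of KLF2 ran from 0.016 to 0.11, that of KLF4 from 0.012 to 0.080, that of KLF13 from −0.14 to −0.022 and that of KLF7 from −0.0089 to 0.16 with single arrays left out, and on probes those of KLF10 ILMN_1659122 from −0.025 to 0.029, KLF3 ILMN_2048507 from −0.047 to 0.031 and KLF4 ILMN_2137789 from −0.10 to 0.021. The cause was not tested. At an adjusted p under 0.01, 567 probes were higher and 392 lower, and 360 genes were higher and 257 lower, and the list of upstream regulators had 0 called higher. SAM called 612 probes higher and 377 lower, where limma called 852 and 724. With the probe of largest SD per gene, 1 of the other KLF and SP factors was called higher, SP4 at 0.30. Leaving out single arrays gave 1 to 2 corepressors and coactivators lower, 1 to 2 upstream regulators higher and 4 to 5 reported targets higher. With the replicate number as a block, 1 KLF gene was called lower, KLF6 at −0.56 (adjusted p = 0.00089), and the block changed no other call of a member or list. With 4 arrays a group, an uncalled change is bounded only by its interval.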
